A study of Mus musculus with 2 samples.

Results

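Lung macrophages that carry messenger RNA of Spp1 or Arg1 formed a small class of 266 cells among the 10088 cells of the series that passed quality filters. A cell was a member when it held at least 5 unique molecular identifiers (UMIs, one per counted transcript) of Spp1 and Arg1 together, fewer than 10 UMIs per 10000 of the alveolar macrophage genes Chil3, Ear1 and Krt79, no UMI of the dendritic cell genes Cd209a, Xcr1 and Ccr7, and fewer than 5 UMIs of 6 cell cycle genes (Top2a, Mki67, Birc5, Cdk1, Pclaf and Rrm2). The cells came from lungs of female C57BL/6J mice, with 8 mice pooled per treatment, and were profiled by droplet-based single cell RNA sequencing on 2 lanes that are technical replicates. Tolerance mice inhaled ovalbumin (OVA) before the same protocol as the asthma mice, which were sensitized to OVA by injection with the aluminium adjuvant Alum and then challenged intranasally with OVA, and allergen-naive control mice were injected with Alum without OVA and given saline intranasally. Digested lungs were sorted for macrophages and for dendritic cells that were MHC-II high and CD11c high and lacked MerTK, CD64 and Ly6C, so the sort sets how many cells of each kind entered. Hashtag antibodies told the treatments apart, and a further antibody tag counted surface CLEC12A. The tolerance pool held 162 members, the asthma pool 98 and the control pool 6. With 1 pool of mice per treatment, treatments were described without a test, and with 6 members the control pool entered no comparison of genes.

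Osteopontin, the secreted phosphoprotein encoded by Spp1, binds CD44 and several integrins and is made by macrophages in wound repair and fibrosis. Arginase 1, encoded by Arg1, splits arginine into ornithine and urea and is a classical product of mouse macrophages exposed to the type 2 cytokines IL-4 and IL-13. In mouse lung, macrophages outside the alveoli derive largely from monocytes and express complement C1q, and monocyte-derived cells recruited in injury can express Spp1, Arg1 and fibronectin. Members were therefore set beside C1q-high macrophages and beside alveolar macrophages, the resident cells of the air space. Both classes had fewer than 5 UMIs of Spp1 and Arg1 and met the same dendritic and cell cycle limits. C1q-high macrophages met the same alveolar limit and had at least 20 UMIs per 10000 of C1qa, C1qb and C1qc. Alveolar macrophages had at least 10 UMIs per 10000 of Chil3, Ear1 and Krt79.

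Spp1 lies on chromosome 5 of the mouse genome (GRCm38, chr5:104435118-104441050, plus strand) and Arg1 on chromosome 10 (chr10:24915221-24927484, minus strand). The RefSeq promoter window of Spp1 (GRCm38.p6, chr5:104434861-104435160) is shown because most members held transcripts of this gene, with capitals marking the only match in it to an interferon-type motif (GAAA, any 2 bases, GAAA), read here from the other strand as TTTC, any 2 bases, TTTC.
Spp1: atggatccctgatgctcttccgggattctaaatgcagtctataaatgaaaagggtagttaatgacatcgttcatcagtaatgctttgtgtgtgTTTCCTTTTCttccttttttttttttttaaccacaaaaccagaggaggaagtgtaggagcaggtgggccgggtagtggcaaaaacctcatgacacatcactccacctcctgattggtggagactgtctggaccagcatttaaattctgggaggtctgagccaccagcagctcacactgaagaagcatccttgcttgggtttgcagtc
This motif, searched on both strands, was held by 3.44% of 32851 mouse promoter windows of 300 bases, and it is taken up below with the interferon genes. A match describes letters in the sequence and not a bound site.

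Of 1176 cells with at least 5 UMIs of Spp1 and Arg1, 731 were left out only because they reached the alveolar limit, 29 only for a dendritic cell gene, 37 only for the cell cycle genes and 113 for more than 1 of these. Just outside the threshold, 41 cells that met every other limit had 4 UMIs of Spp1 and Arg1, and just inside it 34 members had 5. No barcode was shared between matrices. The label of macrophages was borne out by genes the selection did not use. Csf1r, the receptor of macrophage colony-stimulating factor, stood at 508 CPM (a gene's UMIs scaled to all UMIs of the class) in tolerance members and 517 CPM in asthma members, and the Fc receptor gene Fcgr1 (CD64) at 285 and 174 CPM. The dendritic cell genes Flt3 and Zbtb46 were at 0 CPM in tolerance members and 1.61 CPM in asthma members. A list of 12 dendritic cell markers summed to 802 CPM in tolerance members and 910 CPM in asthma members, against 1001 and 1410 CPM in C1q-high macrophages. Mgl2 made up most of it, at 775 and 828 CPM in members. The alveolar genes Siglecf and Marco stood at 5.4 and 1.54 CPM in tolerance members and at 1.61 and 0 CPM in asthma members. Ccr2, the chemokine receptor of monocytes, was at 701 and 865 CPM. Of the 4 other genes proposed as markers of this class, Fn1 and Timp1 were higher in members than in C1q-high macrophages, and Ccl7 and Lgmn did not pass that test.

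Members were unequal in the transcripts that chose them, which are given as a description only. Spp1 reached 2113 CPM in tolerance members and 2591 CPM in asthma members, and Arg1 852 and 1243 CPM. Both transcripts were seen in 170 members, Spp1 alone in 57 and Arg1 alone in 39. The median member held 12 UMIs of both genes together, and the 10 members richest in Spp1 held 32.1% of all Spp1 UMIs of the class. By the larger share of their Spp1 and Arg1 UMIs, 108 members were Spp1-dominant (at least 80% Spp1), 75 were Arg1-dominant (at least 80% Arg1) and 83 were mixed. All 6 control members were Spp1-dominant and none had an Arg1 UMI. A UMI of Spp1 was found in 85.3% of members, 29% of C1q-high macrophages, 48.5% of alveolar macrophages and 4.36% of B cells. B cells should lack Spp1, and median depths in this order were 7224, 5545, 4744 and 1989 UMIs per cell. For Arg1 these shares were 78.6%, 20%, 3.63% and 1.05%. Of the members, 185 (69.5%) also reached the C1q threshold, so most of them carried C1q transcripts as well.

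**Figure D1:**
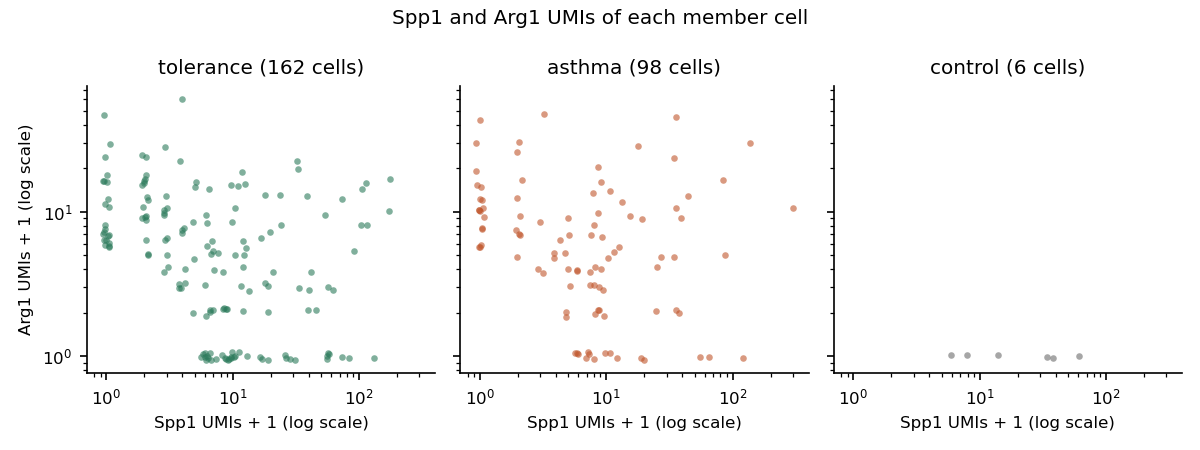
Spp1 UMIs (x axis) against Arg1 UMIs (y axis) of each member, with 1 added and log scales, for the tolerance (162 cells), asthma (98 cells) and control (6 cells) pools. Each point is a cell, slightly displaced so that points do not hide each other. In the tolerance and asthma pools cells spread over both axes, while the 6 control cells lie at 0 Arg1 UMIs.

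Members made up a larger share of the cells in the tolerance pool than in the asthma pool, and under this rule were almost missing from the control pool. The share was 6% (95% Clopper-Pearson interval 5.13 to 6.96%) of 2701 tolerance cells, 2.43% (1.98 to 2.96%) of 4025 asthma cells and 0.178% (0.0655 to 0.388%) of 3362 control cells. In lanes 1 and 2 the shares were 5.77% and 6.23% for tolerance, 2.47% and 2.39% for asthma, and 0.236% and 0.12% for control, so the lanes of a pool were close and the pools did not overlap. These intervals cover counting error only and not differences between mice. Since the rule counts UMIs and tolerance cells were deeper, each cell was also thinned to 2000 UMIs with at least 2 Spp1 and Arg1 UMIs required, which gave 5.63%, 2.64% and 0.231%, leaving out 304, 540 and 330 shallower cells. C1q-high macrophages followed a similar order, at 10.6%, 4.47% and 1.37% of cells. As a share of members and C1q-high macrophages together, members were 36.2% (31.8 to 40.9%) in the tolerance pool, 35.3% (29.6 to 41.2%) in the asthma pool and 11.5% (4.35 to 23.4%) in the control pool. The first 2 of these intervals overlap almost fully. Cells with at least 5 UMIs of Spp1 and Arg1 were not rare in the control pool. Before the other limits there were 361 tolerance, 376 asthma and 439 control cells of this kind, and 164, 241 and 427 of them reached the alveolar limit.

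**Figure D2:**
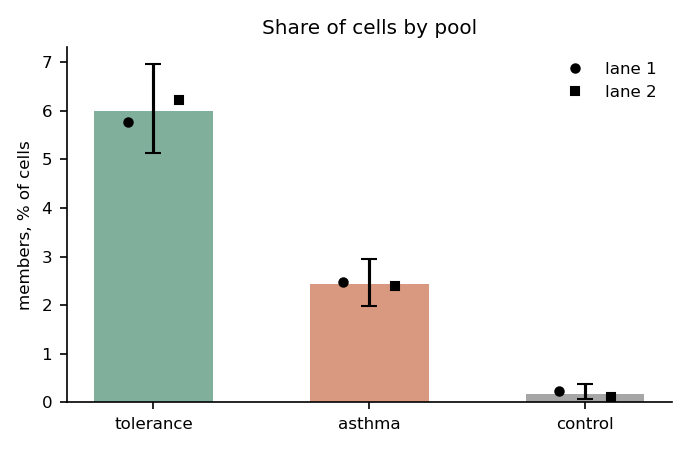
Members as a percentage of the cells passing filters in the tolerance, asthma and control pools. Bars are pool values with 95% Clopper-Pearson intervals, and the circle and the square are lanes 1 and 2. The 3 pools stand at 6%, 2.43% and 0.178%, and the lanes of a pool lie within its interval.

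Some matrix, chemokine, lysosomal and lipid genes were higher in members than in C1q-high macrophages, and some genes of interstitial macrophages and MHC class II were lower, while most genes of these lists other than MHC class II did not pass the test. For each pool, the UMIs of a class were added up, and the tolerance and asthma pools entered the quasi-likelihood test of edgeR, with a block for the pool and Benjamini-Hochberg adjustment. Of 7898 genes tested, 155 (1.96%) were higher and 111 (1.41%) lower in members at an adjusted p under 0.05, 3.37% in all. These genes exclude the 14 used for the selection and the 3 C1q genes. The fit had 1 residual degree of freedom, so its p-values lean on the spread shared across genes. DESeq2 called 45 of the 266 genes, the fit without the pool block 18, and the fit with only the members that reach the C1q threshold 24, and each of these counts was in the same direction. The 10 genes called in all 3 were AA467197, Atp6v0d2, Ccl6, F7, Fn1, Il7r, Mmp19, Slc7a2, Timp1 and Tmem176a.

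Of 23 measured matrix and remodelling genes 9 were higher and 0 lower, with a median log2 fold change of 0.52 against -0.01 for all genes tested. With only members over the C1q threshold 4 were higher (median 0.55). Timp1, an inhibitor of matrix metalloproteinases, stood at 216 CPM in tolerance members and 488 CPM in asthma members, against 40.6 and 72.4 CPM in C1q-high macrophages, a log2 fold change of 2.57 ± 0.16 (SE, n = 2 pools, edgeR adjusted p = 8.66e-09). Fn1, which encodes the matrix protein fibronectin, was at 2370.2 and 2839 CPM in members of the same pools, against 739.7 and 1016 CPM (1.58 ± 0.12, edgeR adjusted p = 5.77e-08). The metalloproteinase gene Mmp19 was at 181 and 296 CPM, against 37 and 52.9 CPM (2.37 ± 0.17, edgeR adjusted p = 1.96e-08). For these 3 genes the lowest member pool lay above the highest C1q-high pool. Tgm2, which encodes the cross-linking enzyme transglutaminase 2, followed at 1.52 ± 0.14 and Adam8 at 1.13 ± 0.18, and Mmp12, the macrophage elastase, passed with only 0.46. Gpnmb passed at 2.03, but its 5 richest cells held 46.3% of its UMIs in tolerance members and 94.7% in asthma members.

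The alternative activation and chemokine genes that passed were mostly higher. Of 24 measured alternative activation genes 9 were higher and 2 lower (median 0.28), and of 19 chemokine genes 6 were higher and 1 lower (median 0.59). Lists can share genes, and Ccl17 counts on both of these. With only members over the C1q threshold 3 genes of each list were higher and 0 lower (medians 0.39 and 0.19). Ccl24, which encodes the eosinophil chemoattractant eotaxin-2, was the most abundant of them, at 2346 CPM in tolerance members and 7692 CPM in asthma members, against 885 and 2549 CPM in C1q-high macrophages (1.49 ± 0.12, edgeR adjusted p = 1.49e-07). The asthma C1q-high cells therefore held more Ccl24 than the tolerance members, and the excess in members was seen within each pool. Ccl17, a ligand of CCR4 that attracts type 2 T cells, was at 632 and 1269 CPM, against 152 and 363 CPM (1.92 ± 0.13), with 76.3% and 59.3% of the member UMIs in 5 cells of the tolerance and asthma pools. Cish, a target of STAT5 signalling, and Cdh1, which encodes E-cadherin and is also an epithelial marker, were higher by 1.63 and 2.21. Against alveolar macrophages Ccl24 was higher (3.46), while Cish and Cdh1 were lower (-0.56 and -1.16). Ccl17 stood at 780 and 422 CPM in tolerance and asthma alveolar macrophages and did not pass against them (0.70). The scavenger receptor gene Cd163 was lower than in C1q-high macrophages (-2.65), with 6 and 1 UMIs in tolerance and asthma members against 45 and 20. The type 2 genes Retnla and Mrc1 gave 0.08 and 0.09 and did not pass. Each differed in opposite directions in the pools, with log2 ratios of -0.49 in tolerance and 0.67 in asthma for Retnla, and of 0.31 and -0.13 for Mrc1. For Retnla the direction also turned between the lanes of each pool. Ccl3 and Ccl4 passed at 0.88 and 0.70, and came to -0.021 and -0.34 without passing when only members over the C1q threshold were used. Ccl7, a CCR2 ligand, was at 393 CPM in tolerance members and 274 CPM in asthma members, against 101 and 336 CPM in C1q-high macrophages, so its summed levels differed in opposite directions in the pools (edgeR adjusted p = 0.125). In the asthma pool the direction turned between lanes, with 156 CPM in members against 372 CPM in C1q-high macrophages in lane 1, and 371 against 299 CPM in lane 2, and 5 cells held 81.8% of the Ccl7 UMIs of asthma members. Lgmn, the lysosomal protease legumain, was at 1227 and 1150 CPM, against 891 and 966 CPM (0.35 ± 0.12, edgeR adjusted p = 0.127).

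Among partners of the selecting genes, 2 of 15 measured genes of arginine and polyamine metabolism were higher and 0 lower. Slc7a2, which encodes a cationic amino acid transporter that imports arginine, was at 221 and 166 CPM in tolerance and asthma members, against 48.3 and 41.4 CPM in C1q-high macrophages (2.11 ± 0.17, edgeR adjusted p = 1.12e-07). Ass1, which rebuilds arginine from citrulline, was higher by 0.62 ± 0.15. Odc1, the enzyme that turns ornithine into putrescine, gave 0.35 ± 0.17 and did not pass (edgeR adjusted p = 0.375). Of 7 measured osteopontin receptors only the integrin gene Itga9 passed, lower (log2 fold change -1.48), at 10.8 and 6.44 CPM in members against 24.7 and 28.7 CPM. Cd44 gave 0.16 ± 0.12 and did not pass.

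Most lysosome, lipid and glycolysis genes did not pass, and those that passed were mostly higher. Of 37 lysosome genes 8 were higher and 1 lower (median 0.21), of 20 lipid handling genes 7 were higher and 1 lower (median 0.45), and of 20 glycolysis genes 4 were higher and 0 lower (median 0.34). With only members over the C1q threshold, 2 lysosome, 2 lipid handling and 0 glycolysis genes were higher, with medians of 0.31, 0.38 and 0.31. Ctsk, which encodes cathepsin K, a collagen-degrading protease, was at 97.2 and 74.1 CPM in tolerance and asthma members, against 17 and 13.8 CPM in C1q-high macrophages (2.47 ± 0.24, edgeR adjusted p = 1.55e-06). The 5 richest cells held 46.8% and 80.4% of the member UMIs of Ctsk in these pools, and without them it stood at 54.1 and 15.3 CPM in members. Atp6v0d2, a subunit of the lysosomal proton pump, was at 106 and 58 CPM, against 13.9 and 18.4 CPM (2.48 ± 0.27). Its 5 richest cells held 29.9% and 63.9% of its member UMIs in the tolerance and asthma pools. Without them it stood at 77.3 and 22.1 CPM, and the lanes of the asthma members were at 32 and 79.6 CPM. The fatty acid binding protein gene Fabp5 was at 1415 and 2363 CPM, against 535 and 985 CPM (1.33 ± 0.12), and Lgals3, which encodes galectin-3, at 4657 and 3867 CPM, against 2681 and 1972 CPM (0.88 ± 0.12). Hif1a, the oxygen-regulated transcription factor gene, was higher by 1.06 ± 0.14, and the glycolytic genes Slc2a1, Pgam1, Pfkp and Pgk1 by 1.09, 0.75, 0.67 and 0.51. Several of these genes are also expressed by alveolar macrophages. On the list of alveolar macrophage genes, 8 of 17 measured members were higher and 0 lower, and the summed level of that list was 5935 CPM in tolerance members and 6122 CPM in asthma members, against 3604 and 4009 CPM in C1q-high macrophages and 20733 and 20236 CPM in alveolar macrophages. Chil3, limited by the rule, stood at 211 and 269 CPM in members, against 178 and 210.3 CPM in C1q-high macrophages, and Siglecf and Marco were near 0 in both. The part of alveolar macrophage RNA in these differences was not tested.

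Among genes on no list, Inhba, which encodes the activin A subunit, was at 157 and 119 CPM in tolerance and asthma members, against 8.74 and 33.3 CPM in C1q-high macrophages (3.03 ± 0.31, edgeR adjusted p = 3.79e-06). All 17 and 29 of its UMIs in tolerance and asthma C1q-high macrophages lay in at most 5 cells. In members the 5 richest cells held 56.2% and 43.2% of its UMIs. Alveolar macrophages held more Inhba, at 251 and 196 CPM, and members were lower than these (-0.64, edgeR adjusted p = 0.00425). Il7r, the interleukin 7 receptor gene, was at 177 and 166 CPM in tolerance and asthma members, against 32.4 and 39.1 CPM (2.29 ± 0.18, edgeR adjusted p = 1.02e-07). AA467197, the mouse gene that hosts miR-147, was at 1549 and 2034 CPM, against 442 and 618 CPM (1.76 ± 0.12). Rgcc, Edn1, Vdr, Mgst1, Pdpn, Galnt6 and Gm15056 were the other named genes that were higher, by 1.37 to 2.31. Against alveolar macrophages Edn1, Pdpn and Gm15056 were higher, Mgst1 was lower (-1.64), and Rgcc, Vdr and Galnt6 did not pass. Of 29 inflammatory and NF-kB genes 7 were higher and 2 lower. Csf1, the gene of macrophage colony-stimulating factor, was at 32.4 and 82.1 CPM, against 4.11 and 5.75 CPM (3.34 ± 0.35), with 74.5% of its UMIs in asthma members in 5 cells.

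Several genes of other states of lung macrophages and monocytes were lower in members. Of 28 measured interstitial macrophage genes 9 were lower and 0 higher (median -0.52), of 6 nonclassical monocyte genes 3 were lower and 0 higher (median -1.12), and of 8 MHC class II genes 4 were lower and 0 higher (median -0.43). Tmem176a was at 214 and 317 CPM in tolerance and asthma members, against 618 and 716 CPM in C1q-high macrophages, and fell by 1.37 on the log2 scale (edgeR adjusted p = 1.55e-06). The fractalkine receptor gene Cx3cr1 was at 74.1 and 20.9 CPM, against 176 and 154 CPM, and fell by 1.71. Selenop, which encodes a secreted selenoprotein, was at 278 and 171 CPM, against 515 and 460 CPM, and fell by 1.12. Cd74, the invariant chain gene, was at 15792 and 16057 CPM, against 22996 and 23504 CPM, and fell by 0.55, with H2-Eb1, H2-Ab1 and H2-Aa at -0.61, -0.50 and -0.48. The C1q-high class was selected on C1q, and in the fit restricted to members over the same C1q threshold none of the 8 MHC class II genes and 2 of the 28 interstitial genes passed. The MHC class II median was -0.45 in that fit, close to that with all members, and the interstitial median was -0.24. Hpgd, which encodes an enzyme that breaks down prostaglandins, had 0 UMIs in asthma members (a level of up to 4.83 CPM is allowed by a limit of 3 counts) and 5.4 CPM in tolerance members, against 35 and 60.9 CPM in tolerance and asthma C1q-high macrophages. Dnase1l3, Lifr, Arhgap5, Gpr183, Grk3, Fgd2, Rnase6, Limd2 and Rogdi were the other named genes of no list that were lower. The heat shock genes Hspa1a and Hspa1b, which also mark tissue dissociation, had log2 fold changes of -1.44 and -1.11, and 3 of 22 genes of that list were lower and 0 higher.

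**Figure D3:**
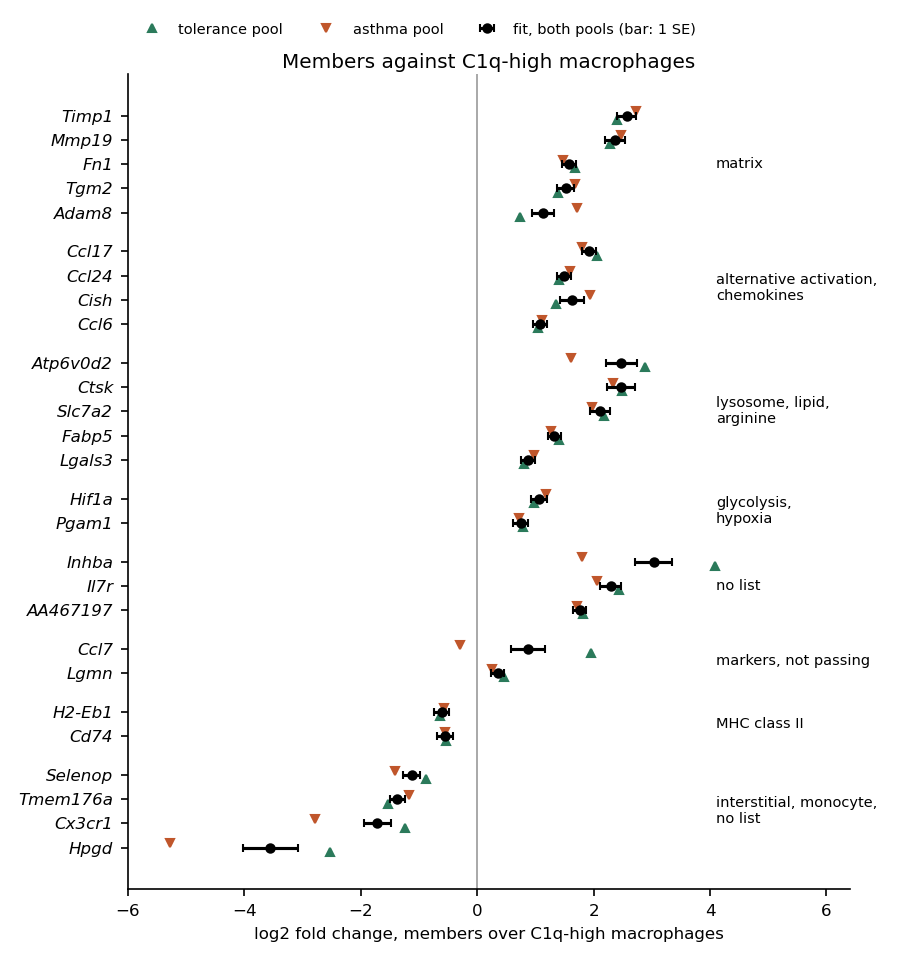
Log2 fold change of members over C1q-high macrophages for named genes grouped by list. Black points are the edgeR fit over the tolerance and asthma pools with 1 SE, and upright and inverted triangles are the tolerance and asthma pools alone with 1 count added. Timp1 (2.57) and Mmp19 (2.37) lie far to the right in both pools, Ccl7 has its pools on opposite sides of 0, and Tmem176a (-1.37) and Cx3cr1 (-1.71) lie to the left.

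Summed markers of some other cell types were higher in members than in C1q-high macrophages, and others were close to their levels there or lower. The 9 epithelial markers summed to 59.4 CPM in tolerance members and 135 CPM in asthma members, against 24.7 and 41.4 CPM in C1q-high macrophages, with Cdh1 the most abundant and 4 of the 9, including Sftpb, at 0. The 8 endothelial markers summed to 53.2 and 70.9 CPM, against 26.7 and 42.5 CPM, with Pecam1 the most abundant and Cldn5 at 0. The 6 mast cell and basophil markers summed to 7.72 and 16.1 CPM, against 1.028 and 1.149 CPM, with 3 of them, including Cpa3, at 0. The part of these cell types in the differences was not tested. Summed over 11 neutrophil markers, members stood at 58.6 and 59.6 CPM in the tolerance and asthma pools, against 42.7 and 55.2 CPM in C1q-high macrophages, and 5 of the 11, including Ly6g, were at 0. The 9 B cell markers summed to 30.1 CPM in tolerance members and 185 CPM in asthma members, against 89.4 and 90.8 CPM, and all 31 Igkc UMIs of asthma members lay in 2 cells. Of 10 T and NK cell markers 8 were at 0 in members, including Cd3e. Scrublet's top 2% of scores took 3 of the 266 members. Members were also deeper than C1q-high macrophages, with medians of 7842 UMIs per cell in the tolerance pool and 6055 in the asthma pool, against 6604 and 4341, and depth was not tested apart from the thinned share above.

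Against alveolar macrophages the members differed more widely. Of 9739 genes tested, 1201 (12.3%) were higher and 1212 (12.4%) lower in members by the same edgeR test, 24.8% in all. Of 27 measured interstitial macrophage genes 24 were higher (median 2.99), of 8 MHC class II genes 7 were higher (median 2.08). Of 24 alveolar macrophage genes 23 were lower (median -3.09). Both classes were defined by opposite sides of the limit on Chil3, Ear1 and Krt79. Genes that go with these 3 therefore differ by selection, and the list counts are a description and no independent support. Il7r showed one of the clear differences, at 177 and 166 CPM in tolerance and asthma members, against 11.8 and 7.05 CPM in alveolar macrophages (4.27 ± 0.20, edgeR adjusted p = 8.01e-09). Ccl7 and Lgmn passed here, at 3.62 ± 0.27 and 1.10 ± 0.11. Fn1 and Timp1 were higher by 1.27 and 3.75. Slc7a2, Atp6v0d2 and Ctsk, higher in members than in C1q-high macrophages, were lower than in alveolar macrophages, with log2 fold changes of -2.18, -2.99 and -3.06, so members stood between both classes for these genes.

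Arg1-dominant and Spp1-dominant members carried different companion genes. Both types were compared within each pool on the log2 ratio of CPM with 1 count added, for 1988 genes with at least 100 UMIs, and 8 genes (0.402%) were at least 1 log2 unit higher and 23 (1.16%) at least 1 lower in Arg1-dominant members in both pools, 1.56% in all. No test was made, since both types come from the same 2 pools. Ccl8, a chemokine gene, was at 1341 CPM in tolerance and 162 CPM in asthma Arg1-dominant members, against 267 and 46.2 CPM in Spp1-dominant members. The asthma values rested on 32 against 9 UMIs. Over all types, 5 cells held 49.2% of the Ccl8 UMIs of tolerance members and 91.7% of those of asthma members. Sdc4, the syndecan-4 gene, was at 541 and 1076 CPM, against 154 and 333 CPM. The mannose receptor gene Mrc1 was at 743 and 929 CPM, against 278 and 436 CPM, and the inhibitory Fc receptor gene Fcgr2b at 1144 and 1452 CPM, against 561 and 631 CPM. Tgm2, Selenop, Mgst1 and Hfe were the other genes higher in Arg1-dominant members. In the opposite direction, Mmp12 was at 401 and 218 CPM in tolerance and asthma Arg1-dominant members, against 2387 and 1918 CPM in Spp1-dominant members. Ccl17 was at 37 and 619 CPM, against 1230 and 2467 CPM, and the lipoprotein lipase gene Lpl at 430 and 269 CPM, against 1128 and 964 CPM. Dcstamp, which encodes a protein of macrophage and osteoclast fusion, was at 2.85 and 35.5 CPM, against 167 and 205 CPM. Gpnmb, Atp6v0d2, Plet1, Acod1, Cd63, Anxa1 and Soat1 were also lower in Arg1-dominant members of both pools. The same held for 4 interferon-induced genes, Oasl1, Ifit2, Ifit3 and Rsad2, which in the asthma pool rested on few counts. There they had 0, 4, 2 and 6 UMIs in Arg1-dominant members, against 7, 12, 10 and 21 in Spp1-dominant members. Few asthma counts also lay behind Gpnmb, Atp6v0d2, Acod1 and Dcstamp, with 1, 0, 2 and 7 UMIs against 12, 22, 26 and 40. Mgst1 had 23 UMIs in asthma Arg1-dominant members against 5. In the tolerance pool 5 cells held 62.1% of the Rsad2 UMIs of all members. Rsad2 was at 188 and 30.5 CPM in tolerance and asthma Arg1-dominant members, against 739 and 108 CPM in Spp1-dominant members, and Ifit3 at 51.2 and 10.2 CPM, against 199.8 and 51.3 CPM. Median C1q content was 52.4 UMIs per 10000 in Arg1-dominant, 77.6 in mixed and 29.1 in Spp1-dominant members.

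**Figure D4:**
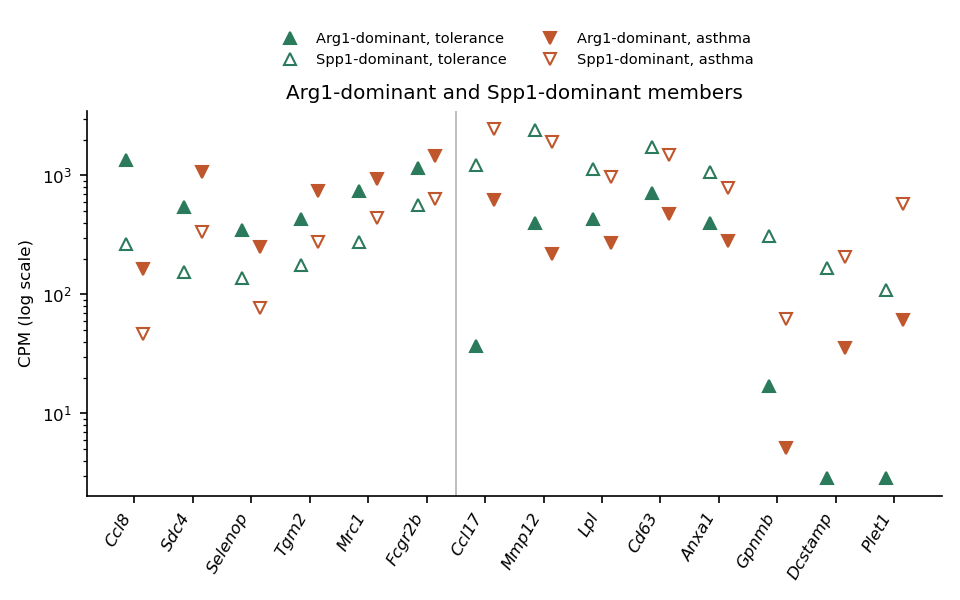
CPM on a log scale of 14 genes in Arg1-dominant (filled) and Spp1-dominant (open) members of the tolerance and asthma pools. Each symbol is the summed UMIs of 1 type in 1 pool. Left of the line filled symbols lie above open ones of the same pool, as for Ccl8 with 1341 against 267 CPM in the tolerance pool, and right of it the order is turned, as for Mmp12.

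Within members, some interferon-induced genes were higher in the tolerance pool than in the asthma pool, and some type 2 genes were lower. With 1 pool each, log2 ratios of CPM with 1 count added are given for 2872 genes with at least 100 UMIs, and 45 (1.57%) were at least 1 log2 unit higher and 18 (0.627%) at least 1 lower, 2.19% in all. Of 24 measured interferon response genes 10 were higher past that limit and 0 lower, and their median was 0.92 in members and -0.01 in C1q-high macrophages. Ifit1, an interferon-induced RNA-binding protein gene, was at 218 CPM (282 UMIs) in tolerance members and 24.2 CPM (15 UMIs) in asthma members, a log2 ratio of 3.08, with 1.51 and 4.12 in lanes 1 and 2. In C1q-high macrophages its ratio was -0.09. Cxcl10, a chemokine of T cells induced by interferon, was at 304 and 9.66 CPM, a log2 ratio of 4.76 in members and 0.71 in C1q-high macrophages, and 70.1% of its UMIs in tolerance members lay in 5 cells. Ifit2, Ifit3, Cmpk2, Oasl1 and Mx1 had log2 ratios of 1.91 to 2.46, which lane 2 carried for the most part, with 2.83 to 4.29 there and 0.30 to 1.10 in lane 1, where only Ifit2 of these 5 passed 1. Gpnmb and the nonclassical MHC gene H2-M2, which are on no interferon list, had 2.38 and 1.82. Rsad2 (viperin) was at 390 and 58 CPM, and 443 of its 506 UMIs in tolerance members lay in lane 2. Summed over the interferon list, members reached 5373 CPM in tolerance and 2793 CPM in asthma, and 4248 and 2406 CPM without the 5 richest cells of each pool. The same sum was 3597 and 3279 CPM in C1q-high macrophages and 3792 and 2958 CPM in alveolar macrophages. The 6 control members stood at 434 CPM. The lanes of the tolerance members differed, at 4276 and 6270 CPM, and those of the asthma members stood at 3139 and 2505 CPM.

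The promoter windows of 3 of the interferon-induced genes that held the same motif are shown, with matches on either strand in capitals. For each gene, and for Spp1 above, the RefSeq window (GRCm38.p6) with the most matches was taken. They are Ifit1 chr19:34640639-34640938 and Ifit3 chr19:34583279-34583578, both plus strand, and Cxcl10 chr5:92348840-92349139, minus strand, each written 5′ to 3′ of its gene.
Ifit1: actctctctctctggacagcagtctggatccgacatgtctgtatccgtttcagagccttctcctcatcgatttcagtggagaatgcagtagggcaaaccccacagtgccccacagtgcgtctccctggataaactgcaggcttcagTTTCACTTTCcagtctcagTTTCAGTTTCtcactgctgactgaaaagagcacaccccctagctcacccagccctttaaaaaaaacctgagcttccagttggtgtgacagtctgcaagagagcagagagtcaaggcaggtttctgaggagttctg
Ifit3: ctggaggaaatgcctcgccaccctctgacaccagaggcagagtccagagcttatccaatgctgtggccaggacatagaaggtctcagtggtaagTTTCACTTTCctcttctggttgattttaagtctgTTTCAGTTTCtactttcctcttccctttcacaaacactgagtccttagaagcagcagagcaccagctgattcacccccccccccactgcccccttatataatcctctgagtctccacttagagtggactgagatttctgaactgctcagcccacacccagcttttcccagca
Cxcl10: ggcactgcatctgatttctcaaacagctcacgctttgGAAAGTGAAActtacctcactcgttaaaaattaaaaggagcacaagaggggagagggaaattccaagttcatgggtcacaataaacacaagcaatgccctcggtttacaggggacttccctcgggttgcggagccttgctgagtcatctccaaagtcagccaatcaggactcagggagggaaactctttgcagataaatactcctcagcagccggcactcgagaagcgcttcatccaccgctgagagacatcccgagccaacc
Of the 29 interferon list genes, 23 had a promoter window in the RefSeq table, and 14 of these (60.9%) held the motif in at least 1 window, against 3.99% of all 27025 genes with a window. Ifit2, Cmpk2, Oasl1 and Mx1, which were also higher in tolerance members, were not among these 14 genes. Ifit1 and Ifit3 held 2 matches each, and Cxcl10 and Spp1 held 1 each. A part of the motif in the difference between the pools was not tested.

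Type 2 genes went the other way. Of 16 measured alternative activation genes 6 were at least 1 log2 unit lower in tolerance members and 0 higher, with a median of -0.76 in members and -0.55 in C1q-high macrophages. Ccl24 was at 2346 CPM in tolerance members and 7692 CPM in asthma members, a log2 ratio of -1.71 in members and -1.53 in C1q-high macrophages. Its lanes gave -1.73 and -1.70. Retnla, which encodes RELM-alpha, was at 1410 and 4002 CPM, a ratio of -1.50, with -0.61 and -1.99 in the lanes and -0.35 in C1q-high macrophages. Ear2 and Rnase2a, ribonuclease genes related to those of eosinophils, had ratios of -1.36 and -1.40. Plet1 was at 60.2 and 283 CPM, with 81.2% of its UMIs in asthma members in 5 cells. Il4i1, Cdh1 and Gpr35 had ratios of -1.22 to -1.27. Ccl3 had -1.54, with -2.03 and -0.77 in lanes 1 and 2, and 5 cells held 75.1% of its UMIs in asthma members, 114 of them in 1 cell. Without the 5 richest cells of each pool Ccl3 stood at 63.6 CPM in tolerance members and 88.3 CPM in asthma members, against 113 and 330.2 CPM with them. Ccl4 had -1.25, with -1.99 and -0.26 in the lanes. In the opposite direction, Ccl8 was at 900.4 and 232 CPM, a ratio of 1.95 in members and 1.19 in C1q-high macrophages. In asthma members 5 cells held 91.7% of its UMIs, and in tolerance members 49.2%. Without the 5 richest cells of each pool Ccl8 stood at 478 CPM in tolerance members and 20.4 CPM in asthma members. The interstitial macrophage list had a median of 0.71 in members and -0.06 in C1q-high macrophages, with 5 of 21 genes past the limit. The selecting genes Spp1 and Arg1 had levels that differed less, as given above.

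**Figure D5:**
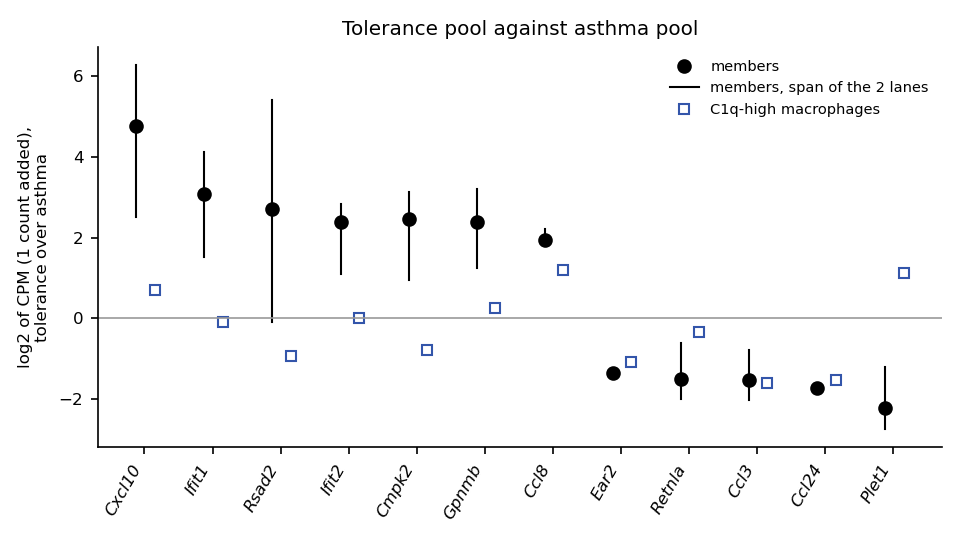
Log2 ratio of CPM (1 count added), tolerance over asthma, for 12 genes in members (black circles, with a line between the 2 lanes) and in C1q-high macrophages (open squares). Cxcl10 (4.76) and Ifit1 (3.08) lie high in members and lower in C1q-high macrophages (0.71 and -0.09), the lanes of Rsad2 lie on both sides of 0, and Ccl24 (-1.71) is low in both classes.

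The CLEC12A tag did not set members apart. The median was 62 tag UMIs per cell in tolerance members and 50 in asthma members, against 61 and 47 in C1q-high macrophages and 17 and 17 in B cells. Scaled to the cell's own hashtag, asthma members had 0.0616 tag UMIs per hashtag UMI against 0.0849 in asthma C1q-high macrophages, and tolerance members 0.0905 against 0.0914. The quartiles of tag UMIs overlapped, 36.3 to 106 in tolerance members against 38 to 90 in tolerance C1q-high macrophages, and cells of 1 pool are not replicates, so no test was made. The Clec12a transcript gave -0.26 ± 0.15 and did not pass (edgeR adjusted p = 0.477).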

How the data were processed

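The members, gene lists and comparisons were chosen with earlier results of these data known. The authors used Cell Ranger 3.1.0 with STAR and the mm10 build, assigned barcodes to treatments by hashtags with Seurat 3.1.5, and deposited whole-number UMI counts for 31053 genes and 4 antibody tags in 6 matrices (3 pools on 2 lanes). The counts were used unscaled. Of 10901 barcodes, 661 exceeded a mitochondrial share of 20%, 22 exceeded 20000 UMIs and 619 had fewer than 500 genes, and these were left out, and 10088 remained. The lanes held between 7897139 and 11459855 gene UMIs per pool. Scrublet's automatic threshold marked 0.0585% and 0.141% of cells per lane, too few to be trusted, so doublets were kept and removal of the top 2% of scores was an alternative.

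Counts were summed per pool and class, where a class had at least 10 cells in a pool, and compared by the quasi-likelihood test of edgeR 4.0.16 under R 4.3.3 (TMM scaling, filterByExpr, pool as block because both classes of a pool come from the same mice, Benjamini-Hochberg at 0.05). Member libraries held 620905 and 1296096 UMIs. SE is the log2 fold change divided by the square root of F. DESeq2 1.42.0 was an alternative. The test was tried on simulated counts. Levels are CPM of the summed UMIs. Named genes were the rule genes and proposed markers, up to 4 passing genes per list by fold, and up to 10 genes per direction on no list with at least 50 CPM and 1 direction in both pools. Within members, up to 10 per direction with at least 100 UMIs and 1 direction in both lanes were named, and further list members were named after their values were seen. A few measured genes were left out of the text. Python 3.11.15, scanpy 1.11.5 and matplotlib 3.10.9 were used. Intervals are exact Clopper-Pearson at 95%. The alternatives changed the test, normalization, filter, block, Spp1 and Arg1 threshold, C1q threshold, gene floor, doublets and lanes. Levels without the 5 richest cells were added after the data had been seen.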

Additional observations from a re-analysis of the deposited data

Results flagged for a closer look

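Ifit1 differed from C1q-high macrophages in opposite directions in the pools, being higher in members in both lanes of the tolerance pool and lower in both lanes of the asthma pool. The log2 ratio of members over C1q-high macrophages was 2.41 in the tolerance pool and -0.76 in the asthma pool, 3.17 apart. Ifit3 had 1.17 and -0.71, a gap of 1.88, which rested on lane 2 (2.13 and -1.86), since lane 1 gave 0.043 in tolerance and -0.043 in asthma. Neither difference between the pools was tested. Asthma members held 15 Ifit1 and 13 Ifit3 UMIs, so their ratios rest on few counts.

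Arg1 was also found outside the class. Of 293 cells with at least 5 Arg1 UMIs, 133 were members and 135 reached the alveolar limit, 65 in the tolerance pool, 70 in the asthma pool and 0 in the control pool. These cells entered none of the comparisons above. The alveolar class holds only cells with fewer than 5 UMIs of Spp1 and Arg1, and so leaves these cells out. Among the cells it holds, Arg1 stood at 17.3 CPM in tolerance cells and 19.7 CPM in asthma cells, against 1.18 CPM in control cells.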

How the results depend on the processing

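Against C1q-high macrophages, 266 genes passed with the pool as a block, 18 without the replicate block and 45 with DESeq2. The count was 426 with doublets removed, 160 with a C1q threshold of 10 per 10000, 496 with one of 50, and 24 with only members over the C1q threshold. Between 193 and 194 genes passed with a lane left out. Against alveolar macrophages the 2413 genes became 964 with DESeq2, and 1598 to 1746 with a lane left out. The share of members was 7.4% in the tolerance pool, 3.5% in the asthma pool and 0.446% in the control pool at 5 UMIs of Spp1 and Arg1 per 10000, 8.37% in tolerance and 3.48% in asthma at 3 UMIs, and 3.74% in tolerance and 1.39% in asthma at 10. Within members, 63 genes passed 1 log2 unit in tolerance against asthma, 128 with a minimum of 50 UMIs and 25 to 71 with a lane left out. The log2 ratio of median CLEC12A tag, members over C1q-high, was -0.46 in asthma per own-hashtag UMI, -0.13 to 0.33 in asthma and -0.023 to 0.20 in tolerance with a lane left out. Of 1221 values of named genes under these alternatives, 949 kept their direction and side of the threshold, 261 lost significance, 7 gained it and 4 changed sign. Those that changed sign were Ccl7 at -0.0667 without lane 2 (1.55 without lane 1), Alox15 at -0.66 with 10 UMIs, and Ccl3 at -0.021 and Ccl4 at -0.34 with only members over the C1q threshold. The cause of these changes was not tested. Leaving out a pool was not possible, since 1 would remain. Treatment rests on 1 pool of 8 mice, and depth limits what can be said of genes below 4.83 CPM in asthma members.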

Other observations

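Other gene groups showed smaller or mixed differences between members and C1q-high macrophages. Of 20 measured monocyte genes 1 was higher and 1 lower, the transcription factor gene Cebpb at 0.71 and the transglutaminase gene F13a1 at -1.44 on the log2 scale. The classical monocyte gene Ly6c2 was at 70.2 CPM in tolerance members and 54.8 CPM in asthma members, against 73 and 52.9 CPM in C1q-high macrophages, and did not pass. Of 16 iron and heme genes 2 were higher, Hmox1 (heme oxygenase 1, 0.61) and Slc7a11 (the cystine transporter, 0.82), and 2 were lower, Trf (transferrin, -1.42) and the hemoglobin receptor gene Cd163. Of 28 interferon response genes 6 were higher and 1 lower (median 0.38). With only members over the C1q threshold 0 of 27 were higher and 0 lower (median 0.37). Cmpk2 and Rsad2 led the 6, at 2.53 and 2.15, and the tolerance pool carried both. They were at 88 and 390 CPM in tolerance members and 14.5 and 58 CPM in asthma members. In C1q-high macrophages they were at 8.22 and 36 CPM in tolerance and 13.8 and 68.9 CPM in asthma. Rsad2, Ifit1 and Ifit2 were counted as higher, but their log2 ratios over C1q-high macrophages in the asthma pool were -0.23, -0.76 and -0.36. Cmpk2, Rsad2, Ifit1 and Ifit2 did not pass with DESeq2 or without the pool block.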
